A study of Mus musculus with 4 samples.

Results

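The PIWI and Tudor genes of the piRNA pathway were followed across cultured mouse gonocytes: Piwil2, Piwil4, Mael, Tdrd1, Tdrd5, Tdrd7, Tdrd9, Gtsf1, Asz1 and Mov10l1. Every probe set that the array annotation gave to 1 of these 10 genes alone was taken, which made 14 probe sets of 45037 analysed, with 2 probe sets for each of 4 genes and 1 for each of 6. No probe set was shared between a member and another gene (0 found). The RA group held 2 samples of gonocytes from testes of mice at 2 days post partum (2 dpp), enriched by THY1 magnetic sorting and kept for 8 h with 100 nM retinoic acid (RA), and the vehicle group held 2 samples treated alike with ethanol. All 4 cultures lacked serum, growth factors and feeder cells. Sample titles carry the numbers 1 and 2 in each group, and the labels do not say what a number stands for or whether samples came from separate animals. The p-values below thus rest on the spread among these arrays alone, and that spread may be technical. The labels name no strain and no genetic change.

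piRNAs are small RNAs of the germ line that guide PIWI proteins to transposon transcripts and, in fetal and newborn male germ cells, direct DNA methylation to transposon copies. In mouse gonocytes PIWIL2 slices transcripts in granules between mitochondria that also hold TDRD1 and ASZ1, and PIWIL4 enters the nucleus from a second kind of granule that holds TDRD9 and MAEL. Tudor domain proteins bind methylated arginines of PIWI proteins and assemble these granules, while MOV10L1 is the RNA helicase that hands precursor transcripts to piRNA production.

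Promoter sequences are shown for the members that hold a searched motif of RA receptors or of E-box factors. RefSeq windows of the build GRCm38.p6, from 250 bases before to 50 bases after a transcript start, were matched by symbol for 9 of the 10 genes, as 14 windows. Capitals mark AGGTCA, the hexamer that retinoic acid receptors bind, and CACGTG, the E-box bound by basic helix-loop-helix factors such as MAX, searched on both strands. The marked hexamers do not overlap each other. Each sequence runs 5′ to 3′ along its gene. Tdrd9 and Tdrd7 are given as the genes with the RA receptor hexamer, and Mael, Tdrd1 and Mov10l1 as the others with the E-box. The other Tdrd7 windows, which start at 45972047 and 45972581, hold neither motif, nor does the Tdrd1 window that starts at 56830462. Whether the E-box goes with the change between array numbers was not tested.
Tdrd9, chr12:111971309-111971608, plus strand: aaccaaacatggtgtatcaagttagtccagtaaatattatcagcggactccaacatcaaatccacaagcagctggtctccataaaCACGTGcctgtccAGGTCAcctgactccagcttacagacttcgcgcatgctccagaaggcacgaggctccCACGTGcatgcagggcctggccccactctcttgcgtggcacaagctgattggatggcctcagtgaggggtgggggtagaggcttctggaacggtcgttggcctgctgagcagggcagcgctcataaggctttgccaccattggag
Tdrd7, chr4:45965085-45965384, plus strand: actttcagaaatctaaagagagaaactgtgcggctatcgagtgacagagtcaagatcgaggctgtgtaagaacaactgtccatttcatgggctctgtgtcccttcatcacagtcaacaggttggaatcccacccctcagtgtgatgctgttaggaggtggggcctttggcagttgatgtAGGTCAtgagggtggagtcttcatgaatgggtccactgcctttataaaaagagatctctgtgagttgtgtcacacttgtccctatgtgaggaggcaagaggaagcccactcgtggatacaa
Mael, chr1:166238695-166238994, minus strand: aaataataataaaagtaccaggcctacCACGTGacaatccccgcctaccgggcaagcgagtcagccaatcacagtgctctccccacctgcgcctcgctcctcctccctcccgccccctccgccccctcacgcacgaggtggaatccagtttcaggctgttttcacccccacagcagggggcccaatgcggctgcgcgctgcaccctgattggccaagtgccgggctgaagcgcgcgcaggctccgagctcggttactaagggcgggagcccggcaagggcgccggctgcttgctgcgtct
Tdrd1, chr19:56825959-56826258, plus strand: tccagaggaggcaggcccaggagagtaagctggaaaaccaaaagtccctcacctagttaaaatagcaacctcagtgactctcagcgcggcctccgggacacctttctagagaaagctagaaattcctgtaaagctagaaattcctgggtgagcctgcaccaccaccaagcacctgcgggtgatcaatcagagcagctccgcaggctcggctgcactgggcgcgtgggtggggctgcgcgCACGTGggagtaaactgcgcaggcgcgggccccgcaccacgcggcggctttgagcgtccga
Mov10l1, chr15:88982744-88983043, plus strand: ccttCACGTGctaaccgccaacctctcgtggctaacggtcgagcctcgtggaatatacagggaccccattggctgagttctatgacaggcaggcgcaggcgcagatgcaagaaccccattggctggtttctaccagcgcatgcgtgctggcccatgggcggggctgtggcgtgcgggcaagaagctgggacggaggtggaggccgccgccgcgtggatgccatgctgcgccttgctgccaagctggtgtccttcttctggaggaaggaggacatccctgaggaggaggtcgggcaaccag

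AGGTCA was found in 2 of the 14 member windows, against 16.3% of all 32851 promoter windows. A known form of retinoic acid response element, 2 copies of AGGTCA in a row with 5 bases between them, was in 0 of the 14 and in 0.00913% of all windows. CACGTG was in 5 of the 14 windows, which belong to Tdrd9, Mael, Tdrd1 and Mov10l1, and in 7.15% of all windows, or 10.4% of the 17116 windows whose CpG count was at or above the median. The 2 Tdrd1 windows that hold it overlap and share the match. The E2F-type core TCCCGC was in 2 of 14 member windows, those of Mael and Tdrd5, and in 20% of all. CpG dinucleotides numbered from 0 to 48 in the member windows with a median of 18.5, against a median of 7 over all windows, and the Tdrd5 window held the 48. These matches describe letters in the windows and nothing about binding.

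The 4 arrays held 45101 deposited probe sets with a trimmed mean signal of 125.0 each, and having 4 arrays in all is what limits the precision. Arrays numbered 2 stood apart from arrays numbered 1 in both groups. Over the 27022 probe sets whose mean signal reached the 40th percentile, the difference between numbers in the RA arrays correlated at 0.532 with that in the vehicle arrays, as a description across probe sets. The known RA target Stra8, a gene of meiotic entry, read 1477 and 783 on RA arrays 2 and 1, against 53.3 and 188 on vehicle arrays 2 and 1. The germ cell proteins Dazl and Ddx4 had strong signals on every array, from 1296 to 1606 for Dazl and from 1121 to 1305 for Ddx4, so defining markers of the labelled cell type were present. In bulk samples, fewer cells of a type and less RNA per cell cannot be told apart.

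Most of the members were read with strong signals in vehicle. Each gene was taken at its brightest probe set and placed among 18193 genes by its mean log2(signal + 5) on the vehicle arrays, as a description, since signals of different probe sets depend on their probes and are not amounts of transcript. The median percentile of the 10 members was 88.4. Piwil2 stood at percentile 99.0, Mael at 98.0 and Mov10l1 at 92.2, so 3 members were in the top 10% of genes. Gtsf1 at 89.6, Piwil4 at 89.3, Asz1 at 87.5 and Tdrd9 at 81.4 followed, then Tdrd5 at 69.1 and Tdrd7 at 64.9. Tdrd1 was last at percentile 45.5. Piwil4, Gtsf1, Asz1 and Tdrd7 each had a dimmer probe set, at percentiles 36.5, 90.3, 80.1 and 27.9 among all probe sets in that order. The place of Piwil4 thus rests on 1447564_x_at alone. The 24 other piRNA and Tudor genes with a probe set had a median percentile of 71.6, and 19 other transposon silencing and chromatin genes had 79.2.

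**Figure D1:**
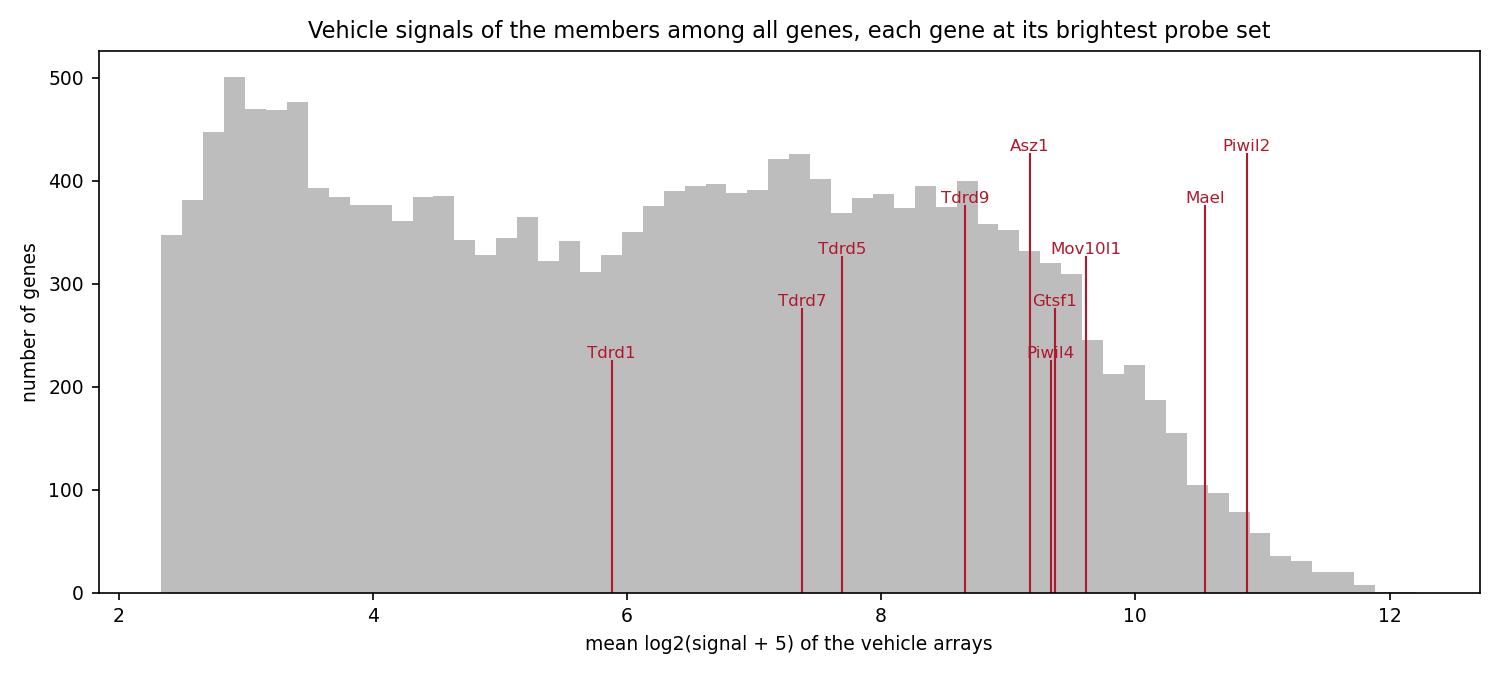
Number of genes (vertical axis) by mean log2(signal + 5) on the vehicle arrays (horizontal axis), each of 18193 genes at its brightest probe set; red lines mark the 10 members. Piwil2 and Mael sit in the right tail at percentiles 99.0 and 98.0, and Tdrd1 lies near the middle at percentile 45.5.

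The 2 PIWI proteins differed in how evenly they were read. Piwil2, the slicer that feeds the piRNA cycle, had signals of 1935.8 and 1793.8 on RA arrays 2 and 1, against 1825.5 and 1929.7 on vehicle arrays 2 and 1. The means were 1864.8 ± 100.4 with RA and 1877.6 ± 73.7 with vehicle (SD, n = 2 each), so the groups overlapped and the RA log2 change was -0.01 ± 0.22 (SE). Piwil4, the nuclear PIWI protein of gonocytes, had 330.2 and 573.8 on RA arrays 2 and 1, against 735.0 and 556.8 on vehicle arrays 2 and 1 at probe set 1447564_x_at. RA array 2 was the low one, while the other 3 arrays lay between 556.8 and 735.0. Its RA log2 change of -0.55 ± 0.29 was the largest in size among the member probe sets, with an unadjusted p = 0.0973 and an adjusted p = 1 in limma. This change was -1.14 between the arrays numbered 2 and 0.04 between the arrays numbered 1. The second Piwil4 probe set, 1439716_at, was dim, with 10.03 and 14.4 on RA arrays 2 and 1 and 12.8 and 13.8 on vehicle arrays 2 and 1, which is under the signal filter.

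Among the Tudor genes, Tdrd9, Tdrd5 and Tdrd1 were each lower on both arrays numbered 2 than on both numbered 1. Tdrd9, a helicase with a Tudor domain that works beside PIWIL4, had 402 and 291 on the arrays numbered 2 of RA and vehicle, against 589 and 547 on those numbered 1. Its log2 change between numbers was -0.72 ± 0.19 (SE), 1.65-fold lower, with an unadjusted p = 0.00397 and an adjusted p = 0.107 in limma. Tdrd9 was also the member with a positive RA change, 0.28 ± 0.33, which was negative (-0.17) without vehicle replicate 2. Tdrd5, which in mouse promotes processing of pachytene piRNA precursors, had 157 and 156 on the arrays numbered 2 of RA and vehicle, against 219 and 260 on those numbered 1. The log2 change between numbers was -0.60 ± 0.19, with an adjusted p = 0.142 in limma, and the RA change was -0.12 ± 0.30. Tdrd1, the scaffold of the PIWIL2 granules, was dim, with 28.4 and 46.4 on the arrays numbered 2 of RA and vehicle against 60.8 and 62.4 on those numbered 1. The log2 change between numbers was -0.68 ± 0.27 with an adjusted p = 0.215 in limma, and the RA change was -0.33 ± 0.38.

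Tdrd7, a Tudor protein best known for remodelling granules of later spermatogenic cells, had no such order. Probe set 1426716_at had 137.9 and 131.0 on RA arrays 2 and 1, against 135.3 and 192.7 on vehicle arrays 2 and 1, so that vehicle array 1 was the high one and the groups overlapped. Its RA log2 change was -0.26 ± 0.24 and its change between numbers was -0.21 ± 0.22. The other probe set of Tdrd7, 1459216_at, lay at the floor with 5.21 and 4.75 on the RA arrays against 10.9 and 5.78 on the vehicle arrays 2 and 1. It was the only member probe set whose RA and vehicle groups did not overlap, and at such signals, close to the added constant of 5, ratios carry little information.

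The remaining members are partners of the PIWI proteins. Mael, an HMG-box protein of the PIWIL4 granules, had 1151 and 1351 on the arrays numbered 2 of RA and vehicle, against 1624 and 1645 on those numbered 1. Both arrays numbered 2 were lower, with a log2 change of -0.39 ± 0.15 and an adjusted p = 0.211 in limma, while the RA change was -0.12 ± 0.25. Gtsf1, a zinc finger protein that helps PIWI proteins cleave targets, had 372.2 and 677.6 on RA arrays 2 and 1, against 632.1 and 676.8 on vehicle arrays 2 and 1 at 1441836_x_at. As for Piwil4, RA array 2 stood apart there: the RA change was -0.76 between the arrays numbered 2 and 0.00 between those numbered 1. The second Gtsf1 probe set, 1452967_at, had 383.2 and 469.2 on RA arrays 2 and 1 and 401.5 and 533.7 on vehicle arrays 2 and 1, with an RA log2 change of -0.13 ± 0.22 against -0.38 ± 0.29 for the first. Both Gtsf1 probe sets were lower on the arrays numbered 2, by log2 changes of -0.35 ± 0.17 at 1452967_at and -0.48 ± 0.23 at 1441836_x_at, of which the second was -0.10 without RA replicate 2 and -0.85 without vehicle replicate 2.

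Asz1, the ankyrin repeat protein that anchors the granules at mitochondria, had 498.7 and 614.9 on RA arrays 2 and 1, against 534.8 and 610.3 on vehicle arrays 2 and 1 at 1424939_at. The RA log2 change was -0.04 ± 0.21 and the change between numbers was -0.24 ± 0.16. At 1422402_a_at the signals were 165.6 and 173.5 on RA arrays 2 and 1 and 161.0 and 241.8 on vehicle arrays 2 and 1, with an RA change of -0.21 ± 0.25 and a change between numbers of -0.32 ± 0.21. Both Asz1 probe sets had lower signals on both arrays numbered 2 than on both numbered 1. Mov10l1, the helicase, had 793.3 and 679.8 on RA arrays 2 and 1, against 747.6 and 808.2 on vehicle arrays 2 and 1. Its groups overlapped in both comparisons, with an RA log2 change of -0.08 ± 0.20 and a change between numbers of 0.05 ± 0.16 that was -0.0048 with equal array medians and -0.0049 after cyclic loess.

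**Figure D2:**
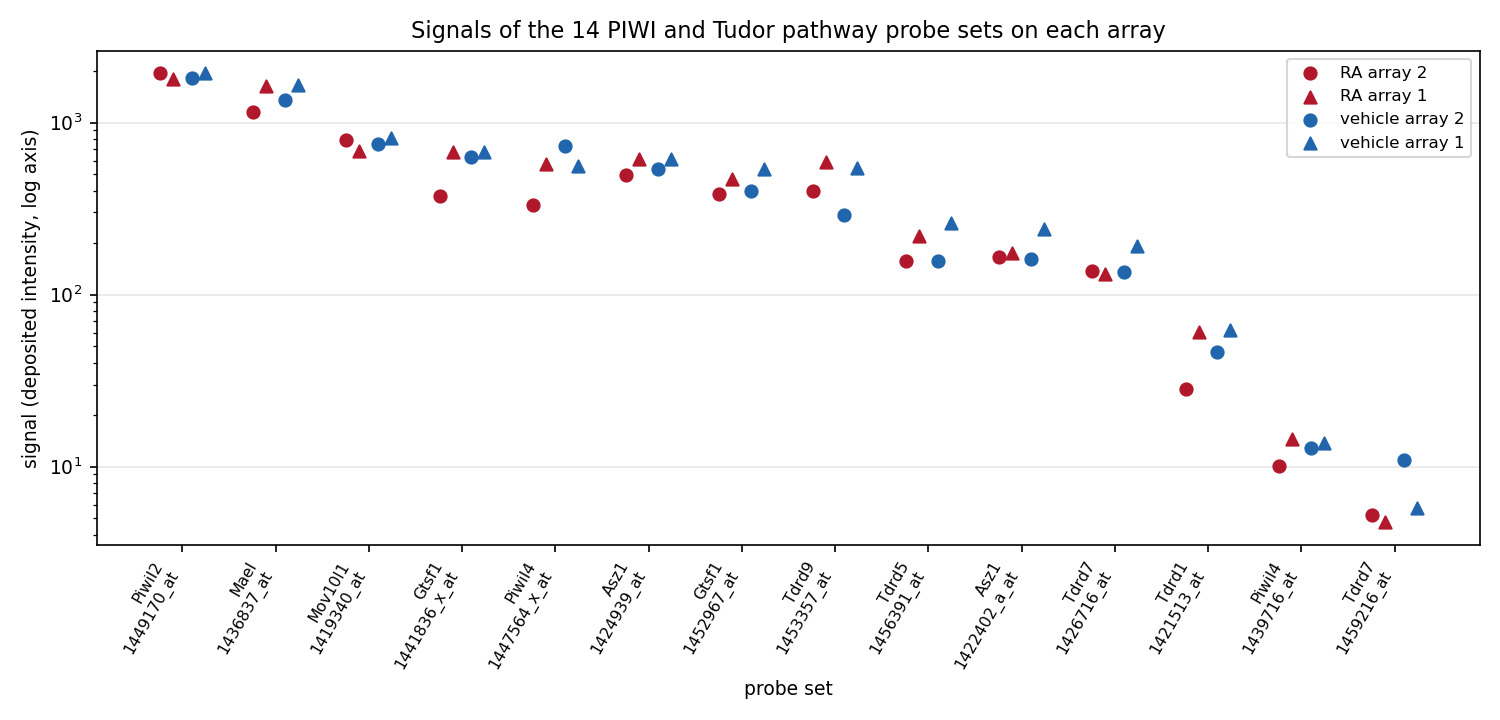
Deposited signal (vertical log axis) of the 14 member probe sets (horizontal axis, ordered by vehicle mean) on each of the 4 arrays; red is RA, blue is vehicle, circles are arrays numbered 2 and triangles arrays numbered 1. Circles lie under triangles in both colours for 9 probe sets, and RA array 2 is the lowest point for 7, by the widest gap for Piwil4 1447564_x_at and Gtsf1 1441836_x_at. The share of all probe sets with their lowest signal on RA array 2 was not taken.

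The comparison of RA with vehicle asked whether these genes respond to RA within 8 h. With limma, 0 of the 12 member probe sets above the signal filter were called at an adjusted p under 0.05, as were 0% of all 27022. At an unadjusted p under 0.05 the members gave 0 and all probe sets 2.77% (1.12% higher and 1.65% lower). With the array number as a further term in the fit, 0 of the 12 were called, beside 0.851% higher and 1.21% lower over all probe sets. Groups overlapped for each of those 12 probe sets, where over all probe sets 12.7% were higher and 15.2% lower with no overlap. Of the 14 probe sets, 13 had a negative log2 change, beside 24186 of all 45037, and Tdrd9 had a positive one. The member changes ranged from -0.55 to 0.28. The median was -0.12, beside -0.02 over all 45037 probe sets, and it rested on single arrays: it was 0.03 without RA replicate 2 and 0.0036 without vehicle replicate 1, while it was -0.28 without RA replicate 1 and -0.30 without vehicle replicate 2. With equal array medians, 4 changes were positive and 10 negative. Set against the median of probe sets of like brightness, 13 of the 14 RA changes were lower and 1 higher, with a median difference of -0.16. For 1 gene alone, the smallest p that exact permutation of 2 and 2 arrays allows is 0.33, two-sided. The smallest SE of a member was 0.20 on the log2 scale, so small changes could not be detected with these arrays. Even Stra8, whose RA log2 change of 3.35 ± 0.53 was the highest of all probe sets, was not called. It had an adjusted p = 0.397 in limma, so a count of 0 called members says little about larger changes either. The 10 germ cell markers had a median RA change of -0.10, with 4 lower and 0 higher with no overlap, and summed to 7877 and 6870 on RA arrays 2 and 1, against 7914 and 7595 on vehicle arrays 2 and 1. Without Sall4, the brightest of them and left out after its values were seen, they summed to 4101 and 4559 on RA arrays 2 and 1, against 5384 and 5327 on vehicle arrays 2 and 1. Zbtb16 and Ret had the largest falls of the 10 on the log2 scale. Zbtb16 had 174 and 368 on RA arrays 2 and 1, against 699 and 701 on vehicle arrays 2 and 1. Ret had 277 and 254 against 562 and 514 in the same order. RA changes were positive for 3 of the 10 markers (Kit, Pou5f1 and the omitted Sall4) and negative for 7. For 4 control transcripts the 3′ signal was divided by the 5′ signal, which reads how complete the cDNA is. They were 2.32 and 2.08 on RA arrays 2 and 1 against 1.73 and 1.72 on vehicle arrays 2 and 1 for Actb, and 2.00 and 1.85 against 1.47 and 1.56 in the same order for Gapdh, higher with RA and with no overlap. They were 9.59 and 14.7 on RA arrays 2 and 1 against 9.57 and 11.5 on vehicle arrays 2 and 1 for Tfrc, and 18.6 and 13.4 against 9.12 and 31.9 in the same order for Pcx, both with overlap. The part of the germ cell markers and of these ratios in the RA changes was not tested.

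In the comparison of arrays numbered 2 with arrays numbered 1, most member probe sets had the lower signals on the arrays numbered 2, and no member passed the test adjusted over all probe sets. By limma's adjusted p, at the threshold of 0.05, 0 of the 12 probe sets above the filter were called, where 0.603% of all probe sets were, 0.414% higher and 0.189% lower. At an unadjusted p under 0.05, 4 members were lower and 0 higher, those of Tdrd9, Tdrd5, Mael and Tdrd1, beside 8.96% lower and 9.58% higher over all probe sets. Both arrays numbered 2 lay below both numbered 1 in 9 of the 14 probe sets and above them in 0. Above the filter these were 8 of 12, where 26.9% of all probe sets were lower and 23.6% higher with no overlap. The median log2 change of the 14 was -0.28, beside 0.03 over all 45037 probe sets, and 11 changes were negative, beside 21090 over all. The median was between -0.42, without RA replicate 1, and -0.21, without RA replicate 2.

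Signal strength moved with the array number as well. Among 20 bins of probe sets of equal size by mean signal, the brightest bin had a median log2 change between numbers of 0.22, and Piwil2 and Mael fall in it. Set against the median of its own bin, the change was lower for 12 of the 14 member probe sets and higher for 2, those of Mov10l1 (by 0.09) and the dim one of Tdrd7 (by 0.16). Mael was 0.61 below its bin (a difference of -0.61 on the log2 scale), and the same difference was -0.68 for Tdrd1, -0.63 for Tdrd9 and -0.49 for Tdrd5. Piwil2 had a log2 change between numbers of 0.01 as deposited, -0.20 relative to its bin and -0.33 after quantile normalization, so its direction depends on the scaling. With treatment as a further term in the fit, Tdrd9 (adjusted p = 0.0024 in limma) and Tdrd5 (adjusted p = 0.0266) were called lower, beside 5.64% of all probe sets called lower and 5.85% higher. That fit leaves fewer residual degrees of freedom, and its SE was 0.1855 for Tdrd9 and 0.1857 for Piwil4 1447564_x_at. Such even SEs rest largely on variance shared over probe sets, so these p-values say little about the spread of each gene. Without vehicle replicate 2, the arrays numbered 2 come down to RA array 2 alone, which is assumed to vary like the others, and Piwil4 at 1447564_x_at, Mael and Gtsf1 at 1441836_x_at were called lower, beside 1.89% of all probe sets called lower and 3.39% higher. Without RA replicate 2 in place of it, the log2 changes of these probe sets were 0.38, -0.27 and -0.10 and none of the 3 was called. After quantile normalization Mael was called lower (adjusted p = 0.0468 in limma), beside 0.207% of all probe sets called lower and 0.507% higher.

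**Figure D3:**
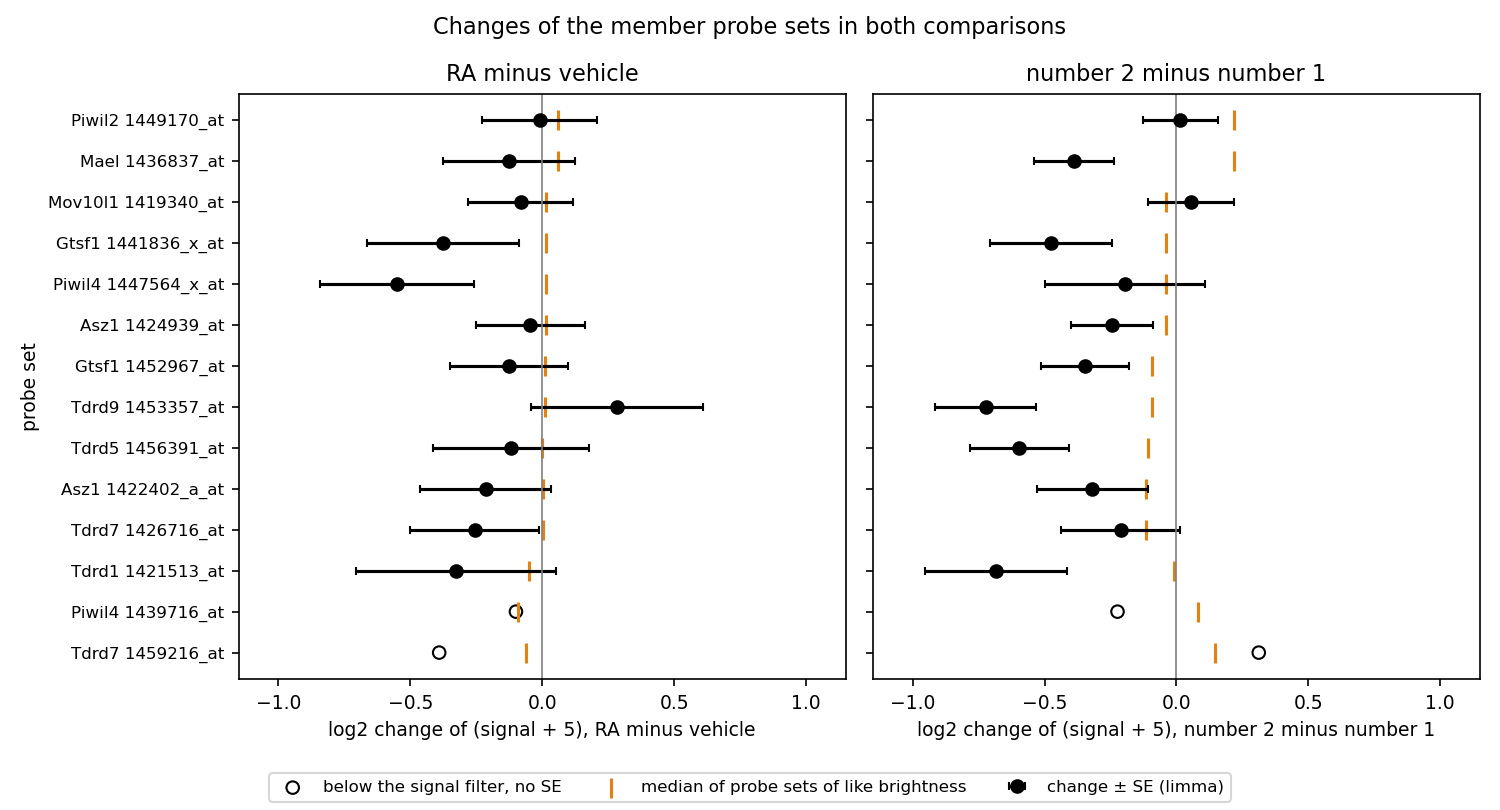
Log2 change of (signal + 5) of each member probe set (vertical axis, ordered by vehicle mean) for RA minus vehicle (left) and number 2 minus number 1 (right); points with bars are the change ± SE from limma, open circles are below the signal filter, and orange ticks are the median of all probe sets of like brightness. The RA changes run from -0.55 to 0.28, and 13 of 14 lie left of their tick, as do 12 of 14 changes between numbers.

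Markers of other cells differed between the array numbers too. All 7 leukocyte markers were higher on both arrays numbered 2 than on both numbered 1, where 21.5% of genes above the filter were, with summed signals of 1966 and 2325 on the arrays numbered 2 of RA and vehicle, against 870 and 1133 on those numbered 1. The 6 mast cell markers summed to 8473 and 8565 on the arrays numbered 2 of RA and vehicle, against 2821 and 3927 on those numbered 1, with 4 of the 6 called higher in limma (0.446% of all genes above the filter were) and 5 higher with no overlap. The 8 peritubular and stromal markers summed to 12542 and 11092 on the arrays numbered 2 against 9674 and 9295 on those numbered 1, and the 4 measured Leydig cell markers to 1978 and 2495 against 1509 and 1374. Thy1, on the stromal list and the surface protein by which the cells were sorted, lay the other way, at 141 and 168 on the arrays numbered 2 of RA and vehicle against 265 and 329 on those numbered 1 (log2 change -0.92 ± 0.20, adjusted p = 0.0704 in limma). The 10 germ cell markers summed to 7877 and 7914 on the arrays numbered 2 against 6870 and 7595 on those numbered 1, with a median log2 change of -0.11, 3 higher and 3 lower with no overlap. Sall4 alone had 3776 and 2530 on the arrays numbered 2 of RA and vehicle, against 2311 and 2268 on those numbered 1, while its other probe set had a log2 change of -0.30. Without Sall4 the sums were 4101 and 5384 on the arrays numbered 2 of RA and vehicle, against 4559 and 5327 on those numbered 1. Dppa3, a factor of primordial and pluripotent germ cells, was called lower, at 7.96 and 12.6 on the arrays numbered 2 of RA and vehicle against 48.3 and 40.3 on those numbered 1 (adjusted p = 0.0357 in limma). Its signals on both arrays numbered 2 were under the filter intensity of 16.03 and close to the added constant, so the size of this change is uncertain. The 7 measured Sertoli cell markers summed to 1536 and 1398 against 1509 and 1193. The 7 endothelial markers summed to 342 and 237 on the arrays numbered 2 of RA and vehicle, against 304 and 318 on those numbered 1. The 10 members at their brightest probe sets summed to 5806 and 6455 on the arrays numbered 2 of RA and vehicle, against 6964 and 7290 on those numbered 1. Kit is on both the germ cell and the mast cell list, and 0 markers were at or under a signal of 5 on all 4 arrays. Within both treatments, this ratio of 3′ over 5′ signal was higher on the array numbered 2 for Actb and lower for Tfrc, and it went both ways for Gapdh and Pcx. The part of other cells and of RNA quality in the change of the members was not tested.

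**Figure D4:**
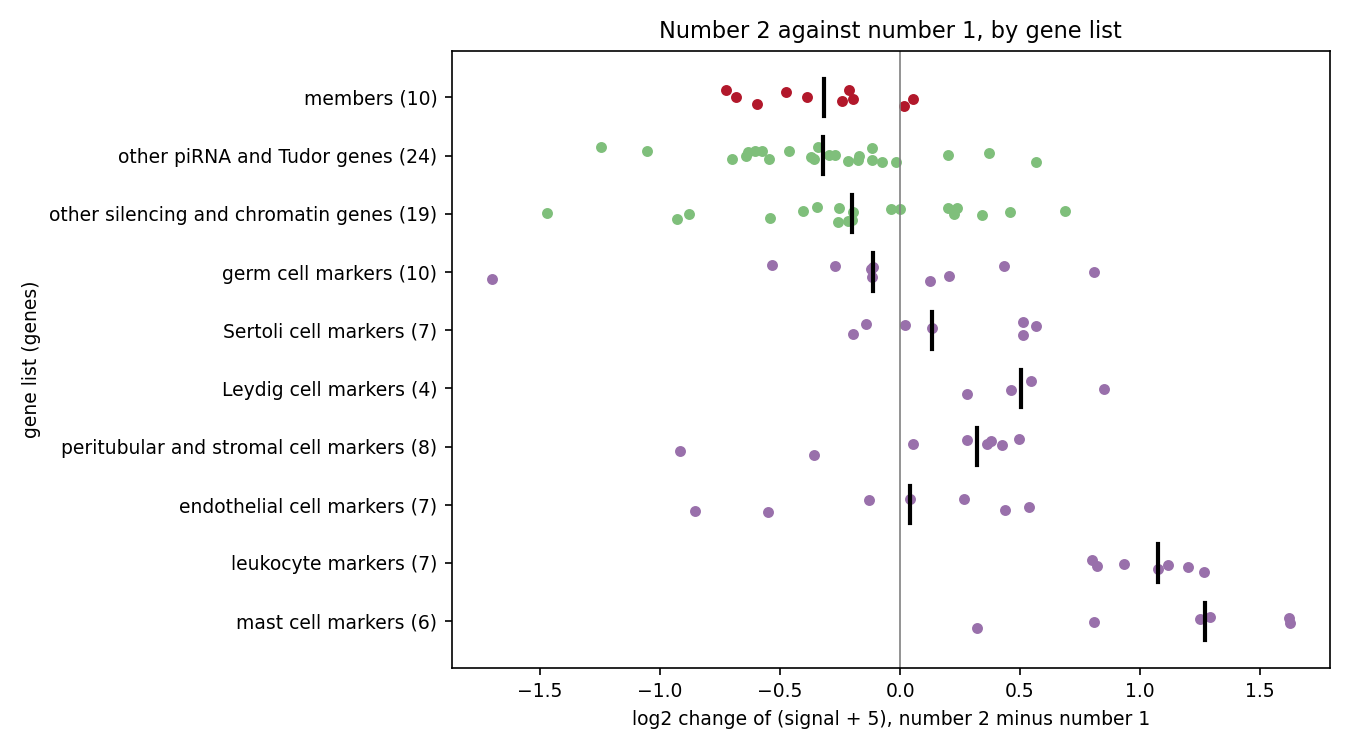
Log2 change of (signal + 5) between number 2 and number 1 (horizontal axis) of each gene at its brightest probe set, by list (vertical axis, number of genes in brackets); black bars are medians. The members and the other piRNA and Tudor genes have medians of -0.32 each, while the leukocyte markers have a median of 1.07 and the mast cell markers 1.27.

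Other genes of the pathway were read from a list of 29 piRNA and Tudor genes, 24 of which had a probe set of their own and all of those 24 passed the filter. With RA, limma called 0 of the 24 after adjustment and found 0 at an unadjusted p under 0.05. The median log2 change was 0.13, with 16 positive and 8 negative, where 9313 of all 18193 genes were positive and 8880 negative. The 3 smallest p-values belonged to Tdrkh, a mitochondrial Tudor protein that helps trim piRNAs, at 0.44 ± 0.30, to Wdr77, the partner of the arginine methyltransferase PRMT5, at -0.25 ± 0.20, and to Akap1, a mitochondrial anchor protein, at 0.32 ± 0.26. Between numbers 0 of the 24 were called, 9 had an unadjusted p under 0.05, 8 of them lower, where 10.8% of genes were lower and 8.08% higher at that threshold. With no overlap, 13 were lower and 2 higher, where 30.5% of genes were lower and 21.5% higher. Exd1, which works with TDRD12 in piRNA production, was 45.0 and 74.7 on the arrays numbered 2 of RA and vehicle, against 136 and 154 on those numbered 1 (log2 change -1.25 ± 0.26, adjusted p = 0.069 in limma). Piwil1, the PIWI protein of later meiotic cells, was 36.8 and 58.6 on the arrays numbered 2 of RA and vehicle, against 106 and 98.7 on those numbered 1 (-1.06 ± 0.26, adjusted p = 0.0917). Stk31, a Tudor protein with a kinase domain, was 438 and 410 on the arrays numbered 2 of RA and vehicle, against 705 and 627 on those numbered 1, and its second probe set gave the same log2 change of -0.64.

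Genes of transposon silencing on chromatin made a list of 22, of which 19 had a probe set of their own and 18 passed the filter. With RA, limma called 0 of the 18 after adjustment, and 1 had an unadjusted p under 0.05, higher, where 1.44% of genes were higher and 1.29% lower. This was Zfp809, a KRAB zinc finger protein that recruits silencing to retroviral primer sites, at 222 and 184 on RA arrays 2 and 1, against 146 and 127 on vehicle arrays 2 and 1 (log2 change 0.55 ± 0.22). Tex19.1, a germ cell factor that restrains retrotransposons, was 472 and 467 on RA arrays 2 and 1, against 550 and 791 on vehicle arrays 2 and 1, with no overlap (log2 change -0.49 ± 0.23, unadjusted p = 0.0661 in limma). L1td1, a protein derived from a LINE-1 open reading frame, had a log2 change of 0.78 ± 0.44 with groups that overlapped.

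Between numbers 1 of the 18 fell and 17 did not pass, where 0.292% of all genes above the filter fell. Dnmt3l, the cofactor that directs de novo DNA methylation at transposons in gonocytes, had signals of 100.03 and 96.5 on the arrays numbered 2 of RA and vehicle, against 267 and 296 on those numbered 1. Its log2 change was -1.47 ± 0.19, with an adjusted p = 0.0142 in limma. Morc1, an ATPase that represses transposons in male germ cells, was 232 and 242 on the arrays numbered 2 of RA and vehicle, against 488 and 399 on those numbered 1 (log2 change -0.88 ± 0.18, adjusted p = 0.0655). Apobec3, a cytidine deaminase that restricts retroviruses and is expressed in blood cells, had 297 and 216 on the arrays numbered 2 of RA and vehicle against 156 and 155 on those numbered 1, a log2 change of 0.69 ± 0.21 (adjusted p = 0.13). The RA log2 change of Dnmt3l was -0.05 ± 0.57.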

How the data were processed

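The 4 samples were each read on an Affymetrix Mouse Genome 430 2.0 array. Per the labels' protocols, the NuGEN Ovation chemistry made cDNA from 75 ng of total RNA, and GCOS 1.2 was the array software. The values the authors deposited are linear intensities, 1 for each probe set of an array; the sources used here do not give the summarisation or the scaling. All 4 arrays had equal trimmed means (2% off each end), so no further normalization was applied.

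With 64 control probe sets left out, log2(intensity + 5) was taken, where 5 is the rounded 20th percentile, so fold changes of dim genes are understated. The 27022 probe sets at or above the 40th percentile by their mean over arrays were tested with limma 3.58.1 in R 4.3.3 (lmFit, eBayes, trend), two-sided. P-values were adjusted over them by the method of Benjamini and Hochberg, for treatment and for the number in the titles in a fit each, with 2 residual degrees of freedom. The RA fit was also run on simulated arrays, independent of each other and with seeded changes larger than any member change here. That run does not show how the fits perform on these data. The platform annotation gave 34945 probe sets 1 gene, 932 several and 9160 none. For 34741 probe sets with 1 gene the Entrez ID was found in RefSeq of GRCm38.p6, and the symbol was taken from there. Named genes were all members, Stra8, the cell type markers and, per context list and comparison, up to 6 genes past the threshold filled to 3 with the smallest p. The members, lists and motifs were chosen with earlier results of these data known. Alternatives covered normalization, constant, filter, variance model, a replicate block, each array left out and the choice of probe sets. Figures were drawn with matplotlib 3.10.9.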

Additional observations from a re-analysis of the deposited data

How the results depend on the processing

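Precision is limited by 2 arrays per group, and the dim probe set of Tdrd1 had the largest SE of the tested members for RA. For RA against vehicle no setting called a member. At an unadjusted p 1 of the 42 other pathway genes passed, beside 1.44% of genes above the filter higher and 1.29% lower. Of 155 comparisons of a member with its value as reported, 137 kept their direction and side of the threshold and 18 reversed. With equal array medians the RA changes of Piwil2, Asz1 1424939_at and Mov10l1 were 0.0798, 0.045 and 0.0084. With each array left out in turn, the RA changes ran from -0.0652 to 0.0445 for Piwil2, -0.3723 to 0.1229 for Mael, -0.8149 to 0.1606 for Tdrd1, -0.4796 to 0.2404 for Tdrd5, -0.1674 to 0.7347 for Tdrd9, -0.805 to 0.0506 for Gtsf1 1441836_x_at, -0.3284 to 0.0777 for Gtsf1 1452967_at, -0.4999 to 0.0722 for Asz1 1422402_a_at, -0.1943 to 0.1051 for Asz1 1424939_at and -0.192 to 0.0292 for Mov10l1, and with no change of sign from -0.9436 to -0.1557 for Piwil4 1447564_x_at and -0.5042 to -0.0094 for Tdrd7 1426716_at. Their median ran from -0.2972 to 0.0348.

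For number 2 against number 1, 139 of 155 comparisons kept direction and side, 6 passed the threshold newly and 10 reversed. Members called numbered 0 as reported, 1 after quantile normalization, 4 at an unadjusted p and 0 to 3 with an array left out. The other pathway genes called numbered 1 as reported (Dnmt3l), 4 with equal array medians and 0 with no filter. Over probe sets ending in _at alone, 0 of 28 were called. The only probe set of Dnmt3l ends in _s_at, so that setting left it out and cannot test its call. At an unadjusted p the other pathway genes called numbered 17, beside 10.8% of genes above the filter lower and 8.08% higher. The median change was -0.3402 with equal array medians, -0.244 over those _at probe sets, -0.3352 over gene means, and -0.4188 to -0.2095 with an array left out. The change of Piwil2 was -0.326 after quantile normalization, -0.0449 with equal array medians and -0.1905 after cyclic loess, and that of Mov10l1 -0.0048 and -0.0049 under the last 2. With an array left out, the changes ran from -0.0376 to 0.0674 for Piwil2, -0.7664 to 0.3759 for Piwil4 1447564_x_at, -0.4817 to 0.0583 for Tdrd7 1426716_at and -0.0692 to 0.1787 for Mov10l1, and with no change of sign from -0.9929 to -0.3735 for Tdrd1, -0.8547 to -0.0986 for Gtsf1 1441836_x_at and -0.5524 to -0.0853 for Asz1 1422402_a_at. The median vehicle percentile was 91.4 over gene means, 83.7 among genes above the filter and 87.65 to 87.87 with an array left out. The cause of these shifts was not tested.

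In the labels, the 2 samples of a number share only that number beyond what all samples share. With the replicate block, 0 members were called for RA against vehicle, beside 0.851% of all probe sets higher and 1.21% lower. With treatment as the block, 2 members and 11 other pathway genes (2 higher, 9 lower) were called between numbers. Over all probe sets 5.85% were called higher and 5.64% lower in that fit, whose p-values rest largely on variance shared over probe sets. The differences between numbers in RA and vehicle correlated at 0.532 across 27022 probe sets, and with 2 pairs this is a hint from the data, not the design.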

Other observations

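Control probe sets named for the mouse short interspersed repeats B1 and B2, which are transposon families, were read outside the tests. The B1 probe set had signals of 1190 and 1165 on the arrays numbered 2 of RA and vehicle, against 721 and 868 on those numbered 1, a log2 change of 0.57. For B2, a probe set had 5461 and 3759 on the arrays numbered 2 against 2745 and 2757 on those numbered 1 (log2 change 0.72), and a dimmer one had 188 and 255 against 178 and 181 (0.28). All 3 were higher on both arrays numbered 2. RA and vehicle overlapped for B1, with a log2 change of -0.12, and for the dim B2 probe set at -0.23 and the bright one at 0.27. Such repeats lie in the transcripts of many genes, so these signals are not a measure of transposon transcription, and the brightest bin of probe sets, with a median change between numbers of 0.22, was higher too.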
